A study of Mus with 6 samples.

Results

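The 10 genes described here encode the lens crystallins Cryaa, Cryab, Cryba1, Cryba2, Cryba4, Crybb1, Crybb2, Crybb3, Crygs and Crygb of the mouse. They were chosen by name and Ensembl identifier, and all 10 were found among the 55421 genes counted. The RNAseq compared lens epithelial cells (LECs) of wildtype C57BL/6 mice, still attached to the lens capsule, at 0 h and at 6 h after removal of the lens fiber cells, an operation that models cataract surgery (post cataract surgery, PCS). There were 3 libraries for 0 h PCS and 3 for 6 h PCS, made from total RNA of 5 pooled capsules each. By the labels the mice were 2 months old, whereas the methods of the study give an older range and both sexes. One eye was operated 6 h before the other and both capsules were then taken, so the 0 h and 6 h pools can hold capsules of the same mice, and which pools share mice is not stated. The fiber mass was lifted out in 1 piece in this operation, and what remained in the bag was sequenced as a whole.

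Crystallins are the soluble proteins that fill lens cells and give the lens its refractive power. The alpha crystallins are small heat shock proteins that keep other proteins from aggregating. The beta and gamma crystallins share a fold of paired Greek key domains and are known to accumulate mainly as epithelial cells turn into fiber cells. Alpha crystallins, by contrast, are known to be made in the epithelium as well.

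Gene counts per library ranged from 18039974 to 24701039. Levels are given as counts per 1000000 (CPM) on library sizes corrected by the trimmed mean of M-values (TMM). The TMM factors were 1.09 to 1.15 for the 0 h libraries and 0.827 to 0.990 for the 6 h libraries, and scaling on library size alone lowered the median log2 fold change over all genes tested from −0.0030 to −0.32. The file of 6 h replicate 3 bears a sample number outside the run of the other 5, and no label calls it another batch. In 6 h replicate 1, 33.6% of read pairs fell on genes and 44.1% were not aligned, against 39.5% to 41.2% and 34.2% to 40.0% in the other 5 libraries, and the most abundant gene took 23.3% of its gene counts against 14.8% to 17.7%. Lens epithelial markers were present, with 5 named genes at a summed 1216 to 1474 CPM at 0 h PCS and 1262 to 1471 CPM at 6 h PCS, but they did not move alike. Epha2 was a DEG with a higher level at 6 h PCS (log2 fold change 1.21, adjusted p = 0.0134 from edgeR), Pdgfra was lower past the FDR limit (−0.73, adjusted p = 0.0179 from edgeR), and the other 3 did not pass it. Over all genes tested, 5.35% were DEGs and 8.33% passed the FDR limit. Without 6 h replicate 3 Pdgfra did not pass it (adjusted p = 0.0533 from edgeR), and Epha2 stayed a DEG (adjusted p = 0.0365). Genes of other eye tissues were also read in these libraries. The summed level of 4 pigment cell genes was 51.4 to 209 CPM in the 0 h libraries and 77.4, 456 and 1965 CPM in 6 h replicates 1, 2 and 3. The 3 retina genes summed to 114 to 728 CPM and 342 to 799 CPM, the 3 corneal epithelium genes to 348 to 495 CPM and 318 to 451 CPM, and the 3 corneal stroma genes to 82.3 to 116 CPM and 90.6 to 201 CPM at 0 h and 6 h PCS. The stroma genes differed, with log2 fold changes of −1.52 for Dcn, 0.16 for Col1a2 and 2.54 for Col1a1 (adjusted p = 0.161, 0.668 and 0.308 from edgeR). Col1a1 was at 3.96, 37.7 and 116 CPM in 6 h replicates 1, 2 and 3. Aldh3a1 made up most of the corneal epithelium sum, with 346.9 to 481 CPM at 0 h and 231 to 346.6 CPM at 6 h PCS (log2 fold change −0.64, adjusted p = 0.0725 from edgeR, and 0.0225 with library size scaling). It went the opposite way to the keratin genes of that list, so this sum cannot be read as the level of corneal cells. The keratin genes Krt12 (0.437 to 7.01 CPM at 0 h and 44.2 to 65.8 CPM at 6 h PCS, adjusted p = 0.0792 from edgeR) and Krt5 (0.328 to 7.70 CPM and 24.9 to 38.4 CPM, adjusted p = 0.146 from edgeR) were higher in every 6 h library without passing the test. The 5 erythrocyte genes summed to 7.94 to 19.5 and 73.5 to 133 CPM, the 7 leukocyte genes to 14.0 to 26.5 and 18.5 to 35.5 CPM, and the 4 endothelium genes to 4.10 to 26.3 and 20.0 to 36.9 CPM. All 5 erythrocyte genes were DEGs with higher levels at 6 h PCS (log2 fold changes 2.83 to 3.34). Of the 7 leukocyte genes 1, Cd68, was such a DEG (log2 fold change 2.55, adjusted p = 0.0129 from edgeR), against 4.53% of all genes tested. Without 6 h replicate 3, Hba-a2, Hbb-bt and Cd68 no longer passed the FDR limit (adjusted p = 0.0615, 0.0525 and 0.0515 from edgeR), while Hba-a1, Hbb-bs and Alas2 remained DEGs. No named marker was at 0 in every library, and the part of these cells in the crystallin values was not tested.

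The 10 crystallin genes took a smaller share of the gene counts in every library at 6 h PCS than in any at 0 h PCS. At 0 h PCS the share was 9.20% in replicate 1 (95% Wilson interval 9.18 to 9.21), 9.87% in replicate 2 (9.86 to 9.88) and 8.03% in replicate 3 (8.02 to 8.04). At 6 h PCS it was 3.96% in replicate 1 (3.95 to 3.96), 5.47% in replicate 2 (5.46 to 5.48) and 7.51% in replicate 3 (7.50 to 7.52). The libraries at 6 h PCS thus differed from each other more than those at 0 h PCS did, and 6 h replicate 3 lay close to 0 h replicate 3. The means were 9.03% ± 0.928 and 5.64% ± 1.79 (SD, n = 3), a difference of −3.39 percentage points (two-sided exact permutation p = 0.1, the smallest that 3 libraries against 3 can give, so that no such comparison can reach 0.05). On the TMM effective library sizes the difference was −1.81 percentage points and the groups overlapped (two-sided exact permutation p = 0.3). The intervals cover counting error within a library only and leave out differences between pools. The libraries were amplified by PCR without molecular identifiers, so reads may not be independent and the intervals may be too narrow. In pooled tissue, fewer cells of a type and less RNA per cell cannot be told apart.

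**Figure D1:**
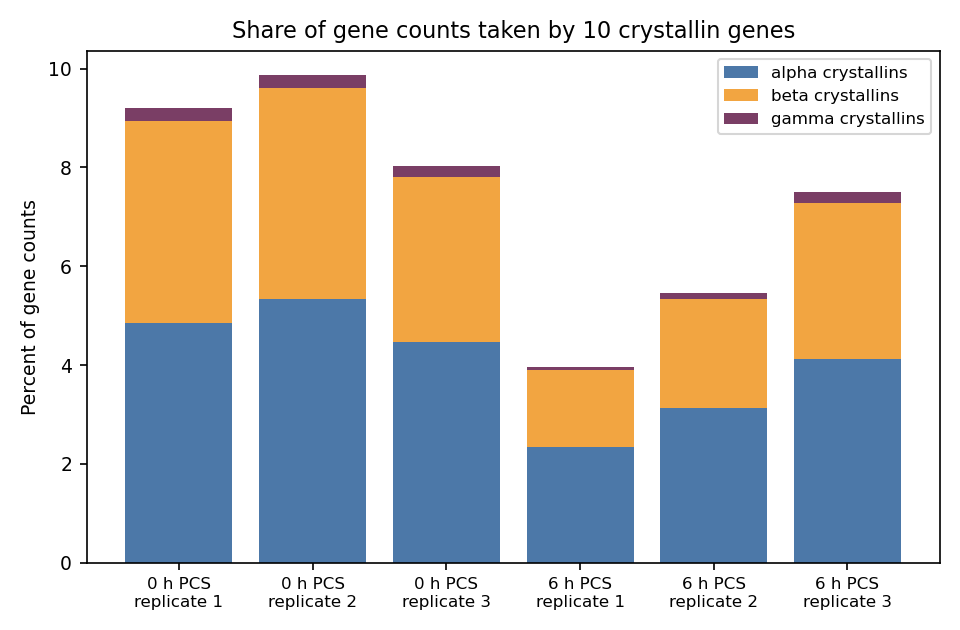
Stacked bars give the percent of gene counts taken by the alpha, beta and gamma crystallins among the 10 genes, for each of the 6 libraries. The bars reach 8.03% to 9.87% for the 0 h libraries and 3.96% to 7.51% for the 6 h libraries, and the bar of 6 h replicate 3 is the tallest of its group.

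None of the 10 genes was a differentially expressed gene (DEG), that is, past a false discovery rate (FDR) of 0.05 with a fold change above 2 in the quasi-likelihood test of edgeR fitted over all 16810 genes that passed the low-count filter, against 5.35% of all genes tested. By direction, 4.53% of all genes were DEGs with higher and 0.821% with lower levels at 6 h PCS. The FDR limit alone was passed by 0 of the 10 and by 8.33% of all genes. All 10 passed the filter. No member had an unadjusted p below 0.05 in that test or in the exact test of edgeR. DESeq2, which gave no p for Crygb, also called 0 members, and 1 member, Cryba1, had an unadjusted p below 0.05. All 10 fitted log2 fold changes were below 0, as were 50.3% of those of all genes tested. Their median was −0.42, beside −0.0030 over all genes tested.

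Both alpha crystallin genes had lower means at 6 h PCS with overlapping groups. Cryaa (ENSMUSG00000024041, chromosome 17 of GRCm38, 31677931 to 31681730) encodes the alpha A subunit and is largely restricted to the lens. It was at 34570, 37681 and 30478 CPM in the 3 libraries at 0 h PCS and at 22895, 24390 and 36949 CPM at 6 h PCS. Replicates 1 and 2 at 6 h PCS lay below every library at 0 h PCS, while replicate 3 was within their range. The log2 fold change was −0.29 (standard error 0.207, 95% interval −0.75 to 0.18, edgeR quasi-likelihood test with Benjamini-Hochberg adjustment, adjusted p = 0.452). Cryab (ENSMUSG00000032060, chromosome 9, 50745951 to 50756636) encodes alpha B, a chaperone that is also made in muscle and brain. It was at 9942, 10265 and 8595 CPM at 0 h PCS and at 5562, 7203 and 10034 CPM at 6 h PCS, so the order of the libraries was that of Cryaa. Its log2 fold change was −0.34 (standard error 0.213, 95% interval −0.81 to 0.14, adjusted p = 0.385 from the same edgeR test). The annotated span of Cryab overlaps that of Hspb2 by 1283 bases, and the strand setting of the counting is not stated.

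Of the 6 beta crystallin genes, Crybb2 took the most counts. Crybb2 (ENSMUSG00000042240, chromosome 5, 113058258 to 113070117) encodes beta B2, a major beta crystallin of the adult lens. It was at 27783, 27785 and 20811 CPM at 0 h PCS and at 13933, 16439 and 25853 CPM at 6 h PCS, with 6 h replicate 3 within the 0 h range. Its log2 fold change was −0.44 (standard error 0.239, 95% interval −0.97 to 0.09, adjusted p = 0.307 from the same edgeR test). Crybb3 (ENSMUSG00000029352, chromosome 5, 113075839 to 113082236), which lies 5721 bases beyond it, was at 1429, 1749 and 1415 CPM at 0 h PCS and at 1212, 1226 and 2051 CPM at 6 h PCS. Its log2 fold change of −0.033 (standard error 0.216, 95% interval −0.51 to 0.45, adjusted p = 0.947) was the smallest of the family.

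Cryba1 (ENSMUSG00000000724, chromosome 11, 77718614 to 77725293) encodes beta A3 and beta A1, which differ by their start codon. Its levels were 3265, 3634 and 2653 CPM at 0 h PCS and 1035, 1790 and 3129 CPM at 6 h PCS. The 3 libraries at 6 h PCS differed 3.02-fold from lowest to highest, against 1.37-fold at 0 h PCS, and the log2 fold change was −0.68 (standard error 0.370, 95% interval −1.55 to 0.18, adjusted p = 0.326 from edgeR). Cryba2 (ENSMUSG00000006546, chromosome 1, 74889934 to 74898842) was tighter, with 3158, 3189 and 2767 CPM at 0 h PCS and 1938, 1978 and 3020 CPM at 6 h PCS. Its log2 fold change was −0.39 (standard error 0.192, 95% interval −0.82 to 0.03, adjusted p = 0.256 from edgeR), the lowest adjusted p among the 10 genes.

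Cryba4 (ENSMUSG00000066975, chromosome 5, 112246492 to 112263625) and Crybb1 (ENSMUSG00000029343, chromosome 5, 112254563 to 112269585) overlap by 9063 bases in the RefSeq annotation, so some of their reads may be left out or assigned to the wrong gene. Cryba4 was at 1003, 1124 and 758 CPM at 0 h PCS and at 232, 478 and 1159 CPM at 6 h PCS. The highest library at 6 h PCS was 5.00-fold above the lowest, against 1.48-fold at 0 h PCS, and the log2 fold change was −0.63 (standard error 0.599, 95% interval −2.14 to 0.89, adjusted p = 0.599 from edgeR). Crybb1 was at 853, 958 and 768 CPM at 0 h PCS and at 357, 512 and 994 CPM at 6 h PCS. Its log2 fold change was −0.47 (standard error 0.347, 95% interval −1.28 to 0.34, adjusted p = 0.475 from edgeR). In both genes 6 h replicate 3 exceeded every library at 0 h PCS.

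Of the 2 gamma crystallin genes, Crygb had the widest spread of the family at 6 h PCS. Crygs (ENSMUSG00000033501, chromosome 16, 22805203 to 22811410) encodes gamma S, the gamma crystallin of the adult lens cortex, and its span lies within that of the long noncoding RNA gene Gm30416. It was at 2232, 2309 and 1862 CPM at 0 h PCS and at 718, 1288 and 2310 CPM at 6 h PCS, a log2 fold change of −0.57 (standard error 0.385, 95% interval −1.48 to 0.34, adjusted p = 0.434 from edgeR). Crygb (ENSMUSG00000073658, chromosome 1, 65080222 to 65082290) belongs to the gamma crystallin cluster, whose genes are known to be expressed in fiber cells and are similar in sequence, so its counts may miss reads shared with its neighbours. It was at 104, 113 and 104 CPM at 0 h PCS, the narrowest range of the 10 genes, and at 8.32, 7.87 and 253 CPM at 6 h PCS. These values stand for 2415, 3109 and 2407 counts at 0 h PCS and for 124, 175 and 4195 counts at 6 h PCS. The highest library at 6 h PCS was thus 32.1-fold above the lowest, and the means of 107 ± 5.42 and 89.6 ± 141 CPM (SD, n = 3) say little about any single pool. The fitted log2 fold change of −0.26 had a standard error of 1.51 and a 95% interval from −4.29 to 3.78 (adjusted p = 0.943 from edgeR).

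**Figure D2:**
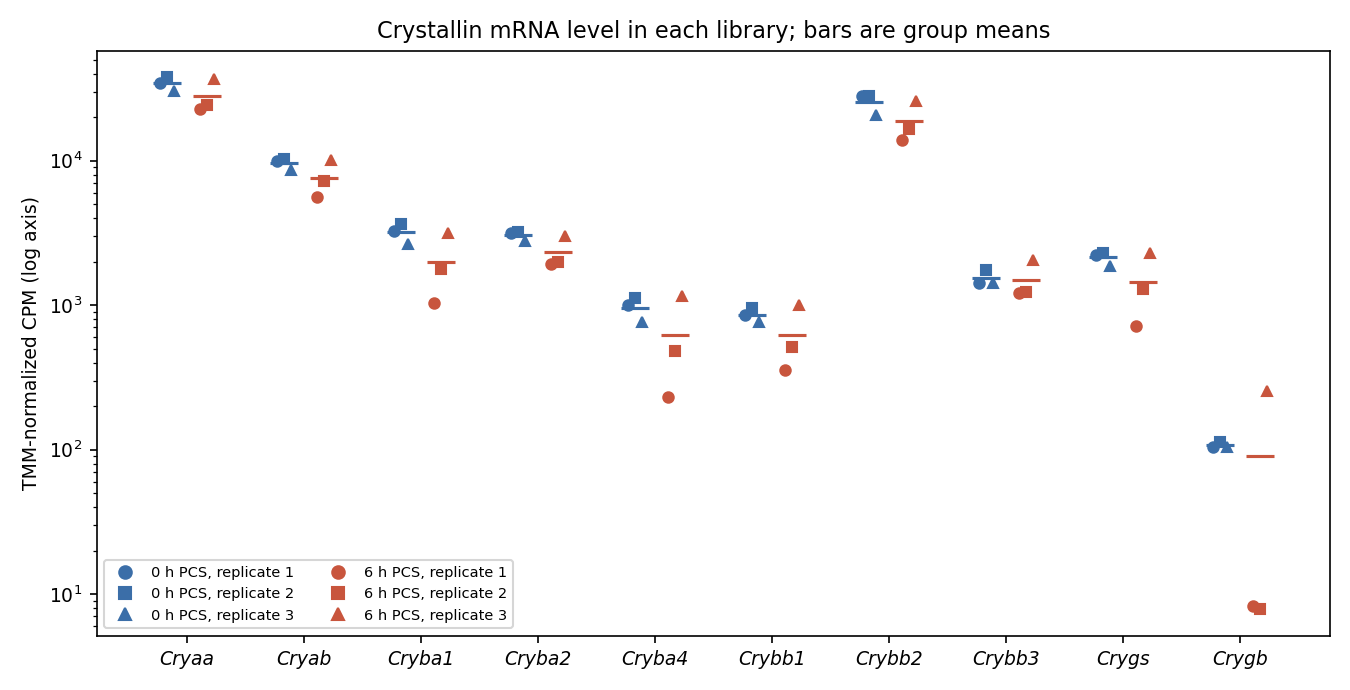
Each point is 1 library, plotted as TMM-normalized CPM on a log axis for each crystallin gene, and the short bars are the means of 3 libraries. In all 10 genes the triangle of 6 h replicate 3 is the highest of its group, and in Crygb the other 6 h libraries, at 8.32 and 7.87 CPM, lie far below it.

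The same order of libraries returned across the family. At 0 h PCS, replicate 2 was the highest or level with the highest in all 10 genes, and replicate 3 the lowest or level with the lowest. How common this 0 h order is over all genes was not computed. At 6 h PCS, replicate 3 was the highest in all 10 genes, as in 34.1% of all genes tested. In 9 of 10 genes 6 h replicate 1 was the lowest at 6 h PCS, and in Crygb it was 6 h replicate 2. Replicate 1 at 6 h PCS is the library with the lowest share of read pairs on genes, given above. Without it 0 of the 10 genes were DEGs, their median log2 fold change was −0.22 and the difference in summed share was −2.54 percentage points, and the part of its read quality in the crystallin values was not otherwise tested. Replicate 3 as the highest together with replicate 1 as the lowest was found in 21.9% of all genes tested. In all 10 genes 6 h replicates 1 and 2 lay below every library at 0 h PCS, an arrangement found in 20.9% of all genes tested. In none of the 10 was 6 h replicate 3 below the 0 h range. It lay within that range in 5 genes and above it in the other 5. The combination of 6 h replicates 1 and 2 below every 0 h library with 6 h replicate 3 not below them was found in 5.53% of all genes tested. It was noticed in the values of the members and is a description of these libraries.

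Against the mean at 0 h PCS, 6 h replicate 1 had ratios between 0.0778 for Crygb and 0.792 for Crybb3. In this library Cryba4 was at 0.241 of the 0 h mean, Cryba1 at 0.325, Crygs at 0.337 and Crybb1 at 0.416. Crybb2, Cryab, Cryba2 and Cryaa followed with 0.547, 0.579, 0.638 and 0.669. In 6 h replicate 2 the ratios ran from 0.0735 for Crygb over 0.497 for Cryba4 and 0.562 for Cryba1 to 0.750 for Cryab and 0.801 for Crybb3. In 6 h replicate 3 they ran from 0.983 for Cryba1 to 1.34 for Crybb3 and 2.36 for Crygb. Crygb, Cryba4 and Cryba1 were thus the 3 lowest in replicates 1 and 2, and Crygb had the widest spread among the 6 h libraries.

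**Figure D3:**
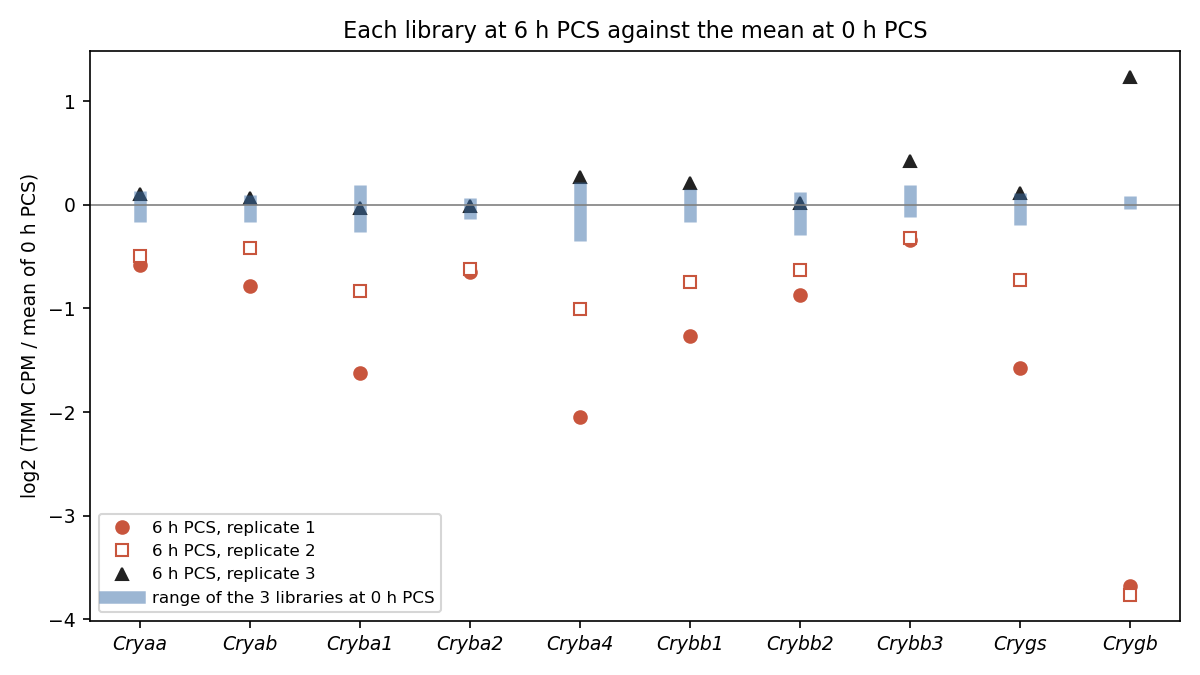
Each symbol is a library at 6 h PCS, plotted as the log2 ratio of its TMM-normalized CPM to the mean at 0 h PCS, and the blue bars span the 3 libraries at 0 h PCS. Replicates 1 and 2 lie below the blue bars in all 10 genes, and replicate 3 lies within or above them.

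On TMM-normalized CPM the groups overlapped in all 10 genes, whereas 30.6% of all genes tested had groups without overlap. By share of gene counts, which is scaling on library size alone, 7 of the 10 genes were lower in every library at 6 h PCS than in any at 0 h PCS, against 33.2% of all genes tested. The exceptions were Cryba4, Crybb3 and Crygb. With library size scaling the log2 fold changes lay between −0.99 for Cryba1 and −0.35 for Crybb3, with a median of −0.73 beside −0.32 over all genes. In that fit Cryba2 (−0.71, adjusted p = 0.0308 from edgeR) and Crybb2 (−0.75, adjusted p = 0.0485 from edgeR) were past the FDR limit with fold changes under 2, while 10.9% of all genes passed the FDR limit in the direction of lower levels at 6 h PCS.

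The calls depended on 6 h replicate 3. This library was the highest at 6 h PCS in all 10 genes, so leaving it out lowers their 6 h levels. The calls without it describe its weight and are no separate test of a decrease. Without that library 3 of the 10 genes were DEGs with lower levels at 6 h PCS, against 0.547% of the 17745 genes then tested. These were Crygb (log2 fold change −3.73, standard error 0.166, adjusted p = 2.67e-05 from edgeR), Cryba1 (−1.17, standard error 0.247, adjusted p = 0.0289) and Crygs (−1.09, standard error 0.244, adjusted p = 0.0356). Crybb1 (−0.98, adjusted p = 0.0183 from edgeR), Cryba2 (−0.63, adjusted p = 0.0357) and Crybb2 (−0.75, adjusted p = 0.0448) passed the FDR limit alone, so that 6 genes did so, against 1.19% of all genes in that direction. Cryaa (−0.54, adjusted p = 0.0843 from edgeR), Cryab (−0.59, adjusted p = 0.0826), Cryba4 (−1.44, adjusted p = 0.0566) and Crybb3 (−0.33, adjusted p = 0.256) did not pass it. With any of the other 5 libraries left out, 0 members were DEGs.

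**Figure D4:**
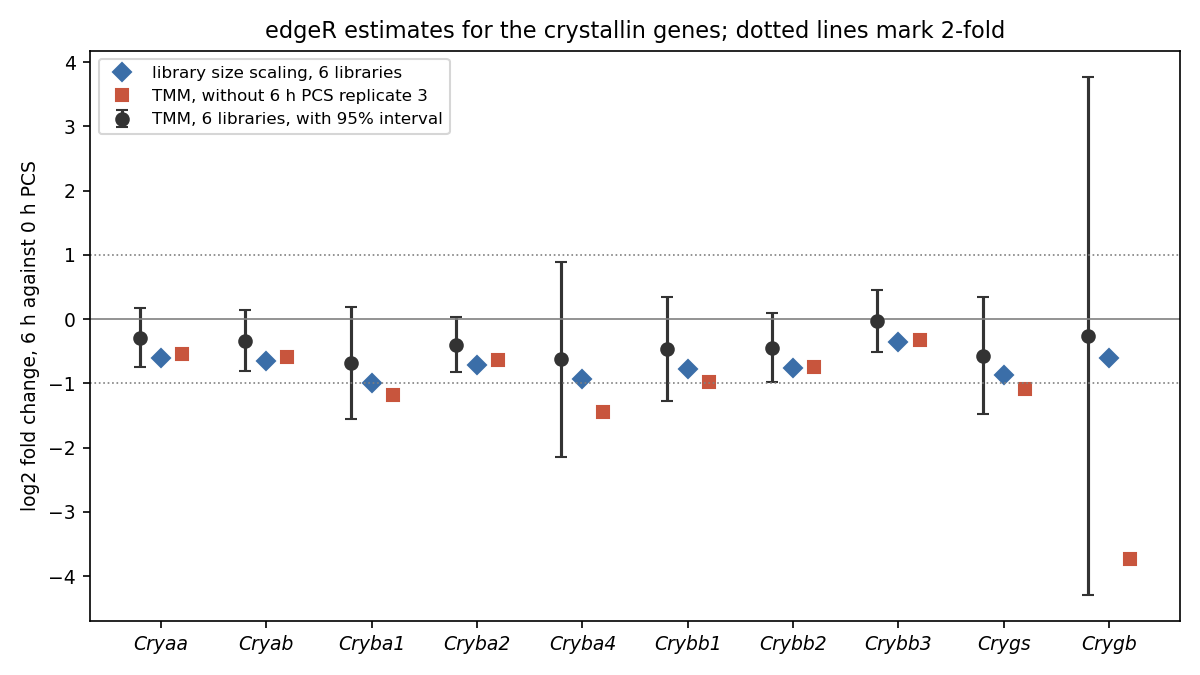
Log2 fold changes of 6 h against 0 h PCS from edgeR for the 10 genes, with all 6 libraries and TMM scaling (circles, 95% intervals), with library size scaling (diamonds) and without 6 h replicate 3 (squares). All circles lie between −0.68 and −0.033 with intervals that include 0, and the squares of Crygb, Cryba4, Cryba1 and Crygs lie below the dotted line for a 2-fold decrease.

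The make-up of the crystallin counts does not depend on how libraries are scaled. Alpha crystallins made up 54.1% ± 1.44 of the crystallin counts at 0 h PCS and 57.1% ± 2.32 at 6 h PCS (SD, n = 3), beta crystallins 43.1% ± 1.46 and 40.6% ± 1.58, and gamma crystallins 2.77% ± 0.0364 and 2.28% ± 0.737. The groups overlapped in each class (two-sided exact permutation p = 0.2, 0.2 and 0.4, and 0.3, 0.3 and 0.4 with Benjamini-Hochberg adjustment over the 3 classes). The alpha share was 59.4% and 57.1% in 6 h replicates 1 and 2, above the 0 h range of 52.8% to 55.7%, and 54.8% in 6 h replicate 3. The gamma share was 1.52%, 2.34% and 2.99% in 6 h replicates 1, 2 and 3, against 2.73% to 2.80% at 0 h PCS.

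Within the crystallin counts, 2 genes had groups without overlap, a count that has no counterpart over all genes. These shares are tied to each other, and a gene that falls less than the rest gains share. Cryba1 made up 3.78% to 4.09% in the 0 h libraries and 2.16% to 3.65% in the 6 h libraries. Crybb3 made up 1.69% to 2.02% in the 0 h libraries and 2.22% to 2.53% in the 6 h libraries. For each the two-sided exact permutation p was 0.1, the smallest possible, and 0.5 after Benjamini-Hochberg adjustment over the 10 genes. Crybb2 and Crybb3 are neighbours, and their count ratio was 19.4, 15.9 and 14.7 at 0 h PCS and 11.5, 13.4 and 12.6 at 6 h PCS, lower in every 6 h library (two-sided exact permutation p = 0.1, and 0.3 adjusted over 3 pairs). The count ratio of Cryaa to Cryab, whose products assemble into mixed oligomers, was 3.56 ± 0.0980 at 0 h PCS and 3.73 ± 0.367 at 6 h PCS (SD, n = 3, two-sided exact permutation p = 0.6). For the overlapping genes Cryba4 and Crybb1 the ratio was 1.18, 1.17 and 0.987 at 0 h PCS and 0.649, 0.933 and 1.17 at 6 h PCS (two-sided exact permutation p = 0.2). The pairs were chosen for position and known assembly, with the values at hand, and their ratios compare libraries, since exon lengths of these genes were not at hand to compare one gene with another.

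Genes known from lens fiber cells were read beside the crystallins. Of 11 such genes listed, 3 could be named in the files and were tested, and 0 were DEGs, against 5.35% of all genes tested. They fell into different patterns. Lgsn, which encodes lengsin, a protein of maturing fiber cells, was at 210, 146 and 121 CPM at 0 h PCS and at 22.4, 19.4 and 315 CPM at 6 h PCS. Birc7, an inhibitor of apoptosis gene, was at 5.16, 1.82 and 1.86 CPM at 0 h PCS and at 0.201, 0.0899 and 10.8 CPM at 6 h PCS, where the 2 low values rest on 3 and 2 counts. Both had the library order of Crygb at 6 h PCS, with replicate 3 above every library at 0 h PCS. Without 6 h replicate 3 both were DEGs, where 0.547% of all genes were DEGs with lower levels, with log2 fold changes of −2.93 for Lgsn (adjusted p = 0.000544 from edgeR) and −4.35 for Birc7 (adjusted p = 0.0221 from edgeR). As with the crystallins, the library left out was the highest for both, so its removal lowers their 6 h levels. Caprin2, an RNA-binding protein gene of the lens, varied less, with 38.3 to 43.2 CPM at 0 h PCS and 31.3 to 45.5 CPM at 6 h PCS (log2 fold change −0.040, standard error 0.167, adjusted p = 0.915 from edgeR).

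Of the other gamma crystallin genes, Crygf alone could be named. It was at 0.258, 3.43 and 10.8 CPM in the 0 h libraries and at 0.537, 0.450 and 41.5 CPM at 6 h PCS, so its highest value was again in 6 h replicate 3. Its libraries at 0 h PCS also differed widely, from 6 to 250 counts, unlike those of Crygb. The fitted log2 value, 1.55 (standard error 2.13, adjusted p = 0.725 from edgeR), changed to −3.28 (adjusted p = 0.298) without 6 h replicate 3. The pigment cell genes, given above, were likewise highest in 6 h replicate 3, and Dct reached 1164 CPM there against 50.3 and 273 CPM in 6 h replicates 1 and 2. Whether these cells or remaining fiber cells had a part in the crystallin values was not tested.

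**Figure D5:**
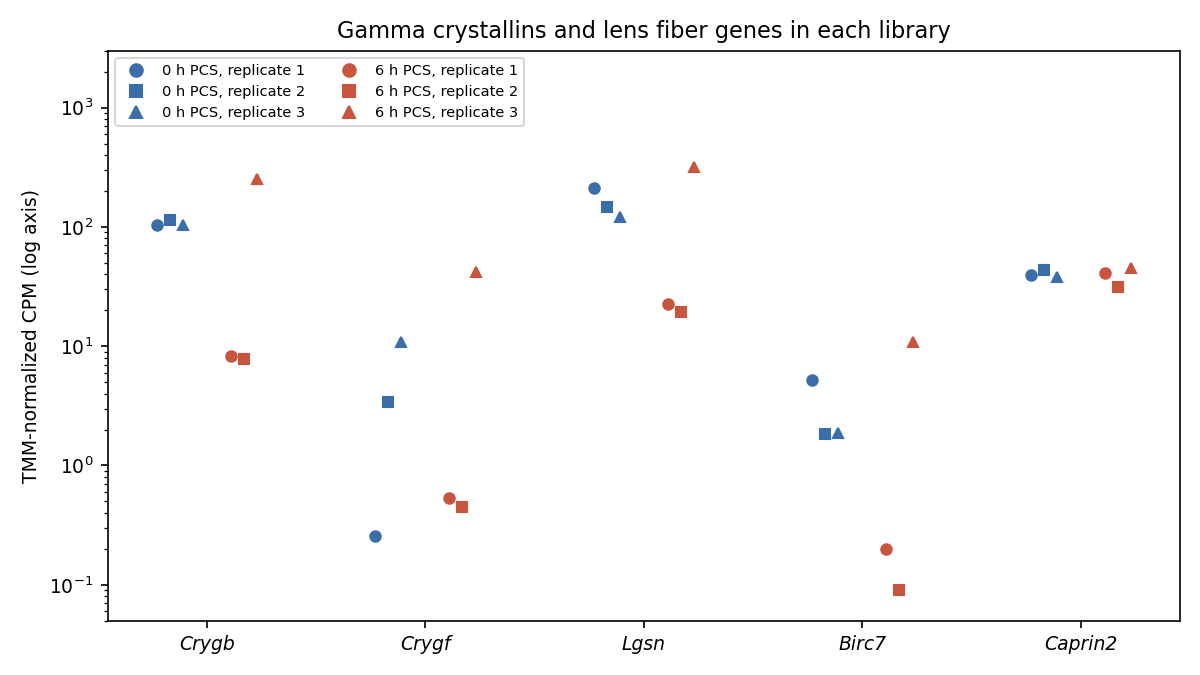
TMM-normalized CPM on a log axis in each library for 2 gamma crystallin genes and 3 lens fiber genes. Crygb, Crygf, Lgsn and Birc7 are highest in 6 h replicate 3 and low in 6 h replicates 1 and 2, while Caprin2 varies little among the 6 libraries.

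Transcription factors and RNA-binding proteins that are known to control crystallin genes were read as well. Of 17 listed, 9 could be named and were tested, on names that lean towards changed genes. Past the FDR limit, 6 were lower and 1 was higher at 6 h PCS, against 2.02% of all genes lower and 6.31% higher. DEGs were 2 of the 9, against 5.35% of all genes. Mafk, a small Maf protein gene, rose from 30.0, 21.6 and 23.5 CPM to 65.0, 59.4 and 94.2 CPM (log2 fold change 1.54, standard error 0.207, adjusted p = 0.00202 from edgeR). Gata3, a factor of fiber differentiation, fell from 11.5, 11.0 and 16.7 CPM to 4.63, 6.52 and 3.31 CPM (log2 fold change −1.43, standard error 0.309, adjusted p = 0.0198 from edgeR). Gata3 was no longer called without 0 h replicate 1 (adjusted p = 0.0616 from edgeR) or without 0 h replicate 3 (adjusted p = 0.0863), and neither gene was called in the edgeR test against a fold change of 2 (adjusted p = 0.623 for Gata3 and 0.132 for Mafk). Prox1, which activates beta and gamma crystallin genes, was at 678, 613 and 640 CPM at 0 h PCS and fell to 432, 331 and 386 CPM at 6 h PCS (−0.75, standard error 0.144, adjusted p = 0.0119 from edgeR). All libraries at 6 h PCS were below those at 0 h PCS, 6 h replicate 3 included.

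Pitx3 (−0.86, adjusted p = 0.00777 from edgeR), Celf1 (−0.73, adjusted p = 0.0211), Sox2 (−0.70, adjusted p = 0.0151) and Sox1 (−0.69, adjusted p = 0.0428) fell past the FDR limit with fold changes under 2. Pitx3 and the Sox proteins are transcription factors of the lens, and Celf1 binds and regulates mRNAs in fiber cells. Pax6, the master regulator of eye development, overlapped between the groups (log2 fold change −0.51, standard error 0.199, adjusted p = 0.156 from edgeR). Foxe3, a factor of the lens epithelium, had 0.28 (standard error 0.135, adjusted p = 0.249 from edgeR), which became −0.031 with library size scaling. With that scaling 7 of the 9 were DEGs, where 3.73% of all genes were DEGs with lower and 3.40% with higher levels.

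Of 6 small heat shock protein genes listed as relatives of the alpha crystallins, 4 could be named and were tested, and 1 was a DEG with a higher level at 6 h PCS, against 4.53% of all genes tested. Hspb1 rose in every library at 6 h PCS, from 34.2, 26.1 and 23.2 CPM to 54.5, 92.8 and 170 CPM (log2 fold change 1.93, standard error 0.416, adjusted p = 0.0400 from edgeR). Hspb8 (1.88, adjusted p = 0.0839 from edgeR), Hspb6 (1.37, adjusted p = 0.0915) and Hspb3 (0.61, adjusted p = 0.710) were not called. In all 4 genes 6 h replicate 3 was the highest of the 6 h libraries.

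Of 7 genes that carry the name crystallin but are not lens structural genes, 6 could be named and 0 were DEGs, against 5.35% of all genes tested. Crybg1, a beta-gamma domain gene, was higher in every 6 h library, with 42.4, 20.0 and 60.8 CPM at 0 h PCS and 167, 98.3 and 159 CPM at 6 h PCS (log2 fold change 1.79, standard error 0.429, adjusted p = 0.0580 from edgeR). Crybg3 went from 183 ± 14.0 to 267 ± 57.4 CPM (SD, n = 3, log2 fold change 0.54, adjusted p = 0.0909 from edgeR). The enzyme-related genes Cryz, Cryzl1, Cryl1 and Crym were at means below 20 CPM with adjusted p-values of 0.255 to 0.886.

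Over the 6 libraries, the profile of the family was taken as the mean of the centred log2 CPM of its 10 genes. Among 3455 named genes with a mean of at least 10 CPM, Fgf12 was nearest to it, with a root mean square difference of 0.0995 on the log2 scale. Ndufa7 (0.224), Ndufa3 (0.231), Echdc1 (0.240) and Mypn (0.243) followed. Of the members, Crybb1 was nearest to this mean (0.0825) and Crygb was farthest (1.38). Fgf12 was at 28.1, 24.4 and 20.2 CPM at 0 h PCS and at 9.20, 12.3 and 28.9 CPM at 6 h PCS.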

How the data were processed

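The RNAseq measured LECs on lens capsules in 6 libraries, 3 of 0 h and 3 of 6 h PCS. Per the labels and the methods, the authors aligned read pairs to GRCm38 with HISAT2 and assigned them to Ensembl genes with HTSeq (union mode), and each deposited file holds raw counts of 1 library with 5 summary rows. The strand setting is not given in the sources used here. Gene counts were 33.6% to 41.2% of the read pairs per library.

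The counts were tested as in the methods of the study, with edgeR 4.0.16 in R 4.3.3 (TMM, low-count filter by group, robust dispersion, quasi-likelihood F-test in its earlier form, Benjamini-Hochberg over all genes tested). DESeq2 1.42.0 was an alternative. A standard error is the absolute log2 fold change divided by the square root of F. Shares were compared by exact permutation in Python 3.11.15 with scipy 1.17.1. Columns with the authors' own comparisons in the supplementary tables were not used.

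Identifiers of the 10 genes came from the rule that defines the set. Other symbols came from the parts of the supplementary tables at hand, which name 7032 of the counted genes and lean towards changed genes. Coordinates are those of RefSeq on GRCm38.p6. Named were all 10 members, members of the lists, and the 5 genes nearest in profile, and 1 other lens gene is not reported here. The members and lists were chosen with earlier results of these data known. Alternatives were other tests, scalings and filters, a replicate block, other denominators, and each library left out. Whether the replicate numbers mark shared mice is not stated, and the main test had no block.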

Additional observations from a re-analysis of the deposited data

How the results depend on the processing

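The number of members called DEG was 0 in the main test and in the 10 other tests, scalings, filters and blocks, and 0 to 3 when each library was left out, with 3 without 6 h replicate 3. For the named fiber genes it was 0, and 0 to 2 with each library left out. For the named regulators it was 2, 7 with library size scaling, 0 in the test against a fold change of 2 (glmTreat), and 1 to 2 with each library left out (1 without 0 h replicate 1 or 0 h replicate 3, where Gata3 was lost). All 3 counts were unchanged by a block for the replicate number, under which the log2 fold change of Crygb was −2.31. The replicate numbers are not stated to mark shared mice, the deviations of same-numbered libraries from their group means correlated at 0.00365, 0.223 and 0.139 for numbers 1, 2 and 3, and not every library correlated best with its own number. Left-out libraries turned 2 members above 0, Crybb3 (range −0.33 to 0.094) and Crygb (range −3.73 to 0.29), with Crybb3 at 0.070, 0.094 and 0.077 without 0 h replicate 2, 6 h replicate 1 and 6 h replicate 2, and Crygb at 0.28 and 0.29 without 6 h replicates 1 and 2. The left-out libraries were low 6 h libraries of either gene or the highest 0 h library of Crybb3. With all libraries Crybb3 was at −0.033. Why the libraries differ was not tested. The difference in summed share kept its sign throughout, between −4.32 and −2.54 percentage points with each library left out and −3.87 with the most abundant gene left out of the denominator. Counts per kilobase were not run, since exon lengths of these genes were not at hand. DESeq2 gave no p for Crygb. With 3 pools per time point the interval of Crygb allows a change in either direction.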
